A study of Mus musculus with 4 samples.

Results

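The genes described here are 53 genes of DNA replication and S phase, taken by symbol from a list that runs from origin licensing to the G1/S transcription factors. All 53 were found among the 56748 gene IDs of the count table. They were measured in bulk RNA of cells labelled as fibroblasts, cultured from the prostates of male C57BL/6 mice of 8 to 10 weeks, with 1 library for each of 4 conditions. The conditions are BuOE with radiation, PBS (phosphate-buffered saline) with radiation, BuOE without radiation and PBS without radiation. Irradiated mice received 37.5 Gy to the pelvis, with shielding, in fractions of 7.5 Gy over 5 days. The cells were taken and cultured afterwards. BuOE is part of the chemical name of the manganese porphyrin in the series title, a compound that mimics superoxide dismutase. The labels used here do not give its dose, its timing or whether it was given to the mice or added to the culture. How many animals stand behind a library is also not stated, and no label names a genetic alteration.

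Each condition has a single library, so a ratio below compares 2 libraries, without replicates and without a p-value. Levels are in CPM, read counts scaled to a common library size and composition, and each ratio is a log2 ratio of those levels, so that -1 is a level 2-fold lower. The range after a ratio is its 95% interval from the counts, which covers counting error only. The 4 libraries held between 24996835 and 35915448 counted reads. Fibroblast markers were present in every library, with summed levels between 5316 and 9304 CPM, but so were markers of epithelium, between 3837 and 5902 CPM, which goes against cultures of fibroblasts alone. None of 7 lymphocyte markers reached a mean of 1 CPM. All 53 replication genes passed the filter on low levels, a mean of 1 CPM or more, that left 14365 genes, with means between 2.53 CPM for E2f2 and 212 CPM for Dnmt1, and none had fewer than 33 reads in any library.

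Replication starts at origins that are licensed in G1, when the origin recognition complex, Cdc6 and Cdt1 load the ring of Mcm2 to Mcm7 onto DNA. On entry into S phase the ring is turned into the active helicase by Cdc45 and the GINS complex, and polymerases then copy both strands behind it with the help of the PCNA clamp. Most of these genes are transcribed under control of E2F factors at the border of G1 and S, so that their mRNA is abundant in dividing cells and scarce in resting ones. In a mixed culture fewer dividing cells and less RNA per dividing cell cannot be told apart.

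The clearest contrast was between BuOE and PBS. The 53 genes together made up 1462 CPM in the irradiated BuOE library and 2897 CPM in the irradiated PBS library. Without radiation they summed to 1639 CPM in the BuOE library and 3512 CPM in the PBS library. Both BuOE libraries thus lay well below both PBS libraries, and in 52 of the 53 genes the levels of the 2 BuOE libraries were each below those of the 2 PBS libraries, against 29.8% of all genes kept. The exception was Ung. The plot of levels by gene shows the same separation row by row.

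**Figure D1:**
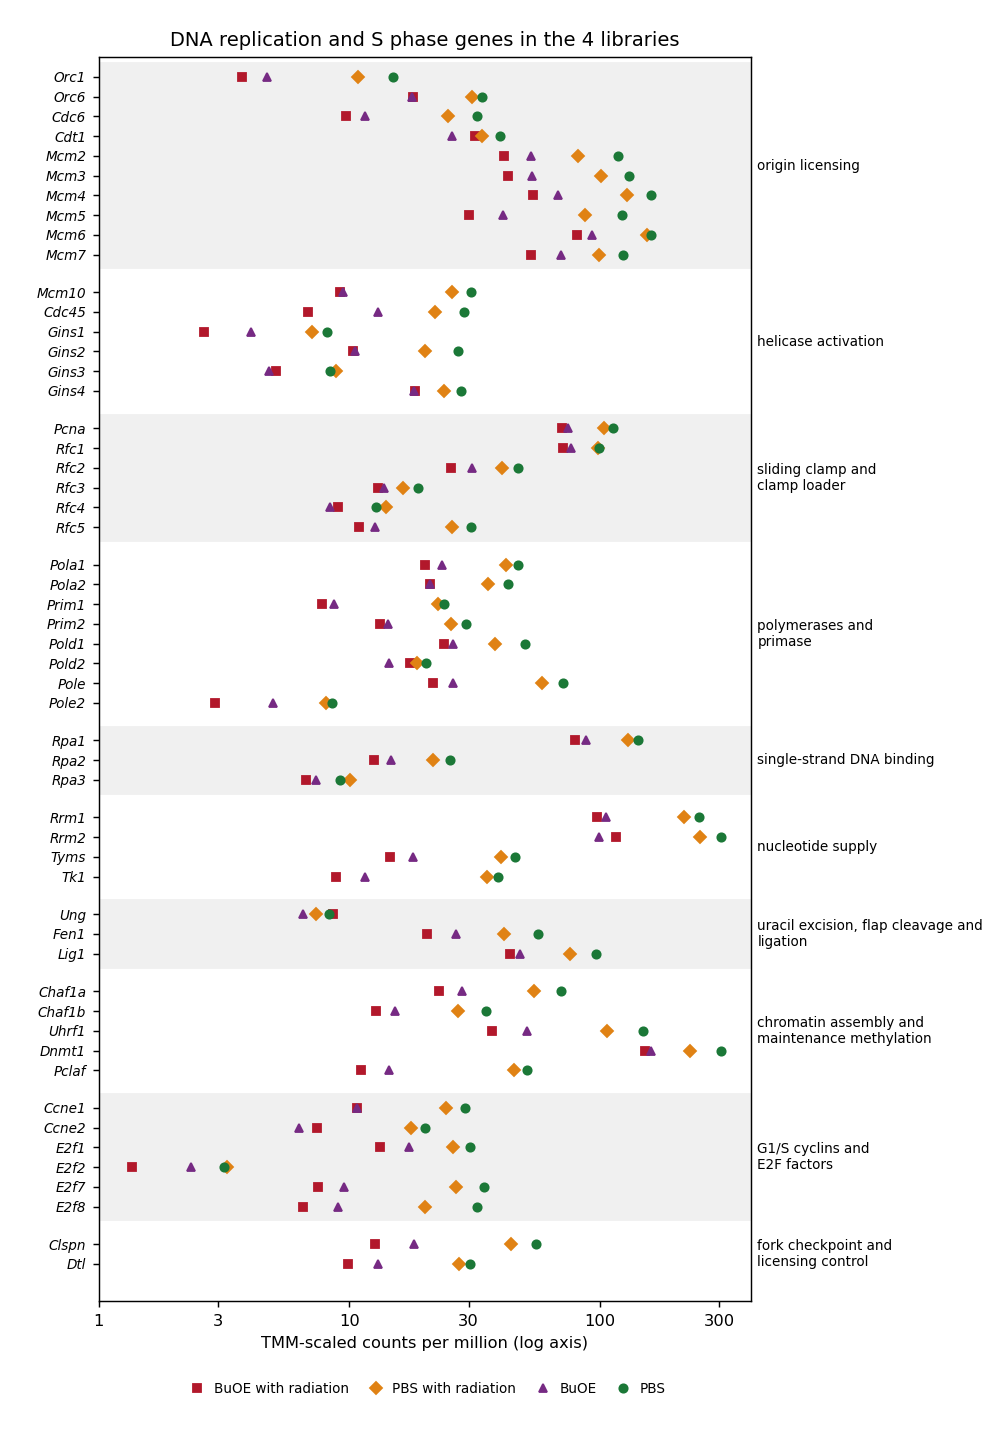
Level of each of the 53 genes in each library, in TMM-scaled CPM on a log axis, with genes in rows grouped by role and 1 symbol per library. The BuOE symbols (squares and triangles) sit to the left of the PBS symbols (diamonds and circles) in every row but that of Ung, and Rrm2 and Dnmt1 reach the highest levels, above 300 CPM in the PBS library.

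After radiation the median ratio of BuOE to PBS over the 53 genes was -1.08, against -0.07 over all genes kept. Ratios ran from -2.02 for Pclaf to 0.22 for Ung, and 52 of 53 were below 0, where 56.2% of all genes lay. At least 1.5-fold lower in the irradiated BuOE library were 46 of the 53, against 14.6% of all genes, and at least 2-fold lower were 29, against 5.92%. None was 1.5-fold higher, against 11% of all genes. Without radiation the median was -1.09, against -0.01 over all genes. All 53 ratios were below 0 in that comparison, against 51.2% of all genes. They ran from -1.85 for E2f7 to -0.31 for Rpa3, with 47 at least 1.5-fold lower, against 10.6%, and 31 at least 2-fold lower, against 4.23%. None was 1.5-fold higher, against 16% of all genes. The counting interval lay wholly below 0 for 50 genes after radiation, against 40.4% of all genes, and for 52 without, against 36.1%. These are 2 comparisons of separate library pairs. In both of them 26 of the 53 genes were at least 2-fold lower, against 2.2% of all genes, and the ratios of the 53 genes ranked alike, with a Pearson correlation of 0.83 and a Spearman correlation of 0.84 across genes, which are not independent replicates. Among the 33 genes averaging 20 CPM or more the Pearson correlation was 0.90, and over all genes kept it was 0.14.

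**Figure D2:**
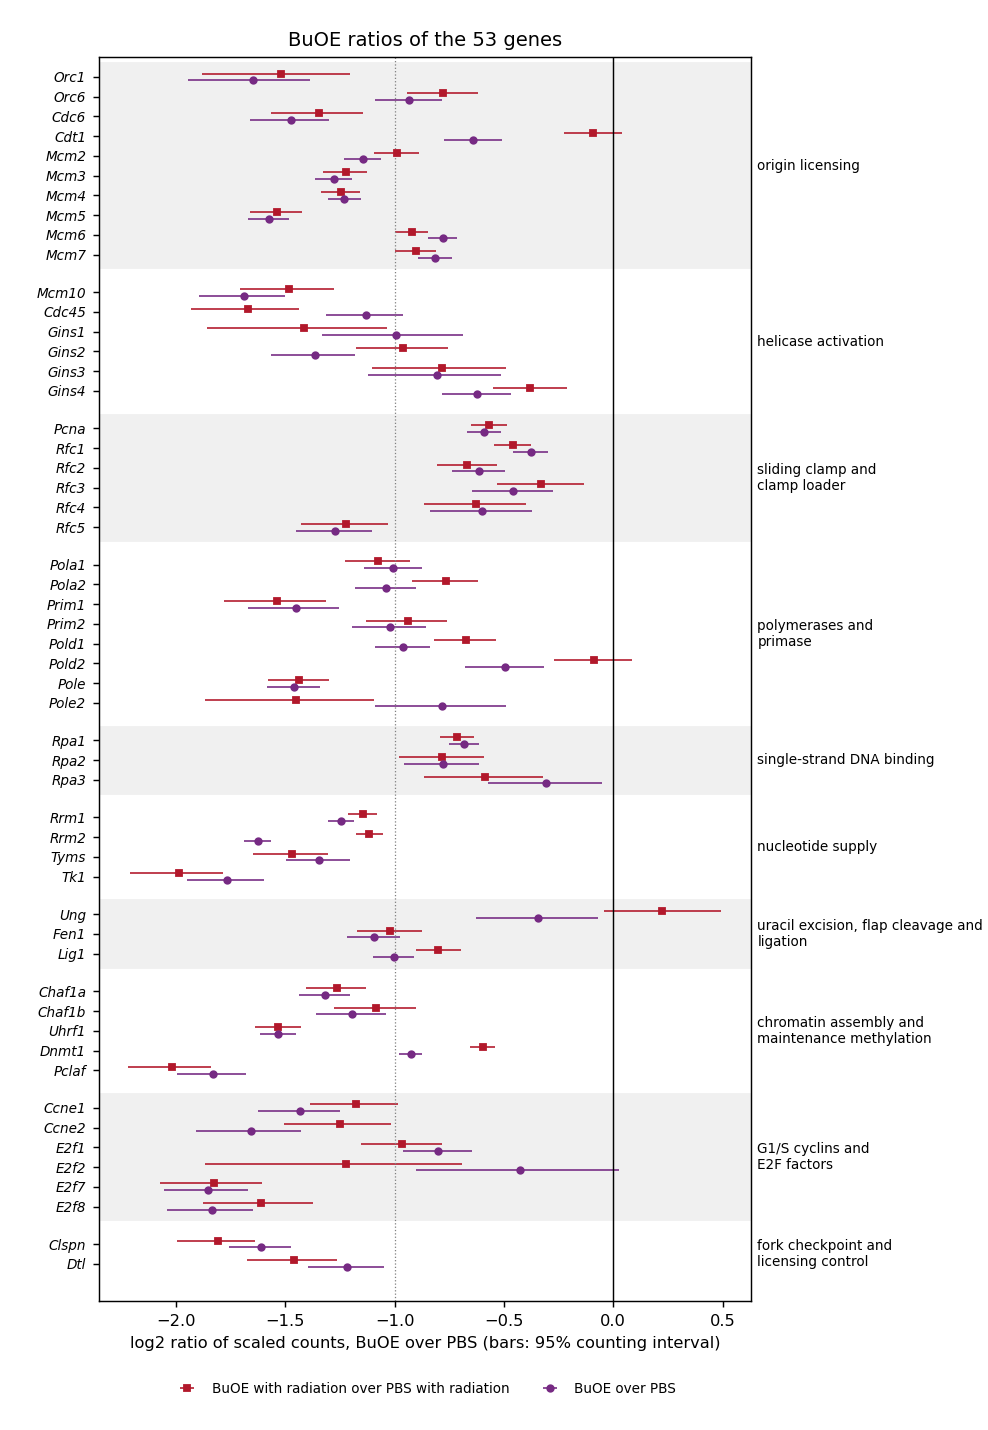
Log2 ratio of the BuOE to the PBS library for each gene, after radiation (squares) and without radiation (circles), with 95% counting intervals as bars; the solid line marks no difference and the dotted line a 2-fold lower level. Nearly all intervals lie left of 0, and the clamp loader genes lie nearer to 0 (median -0.60 in both comparisons) than the G1/S cyclins and E2F factors (medians -1.24 and -1.54).

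The origin licensing genes were lower with BuOE as a group. Mcm4, a subunit of the helicase ring, stood at 54.2 CPM in the irradiated BuOE library and 129 CPM in the irradiated PBS library (-1.25, -1.34 to -1.16), and at 68.3 CPM in the BuOE library and 160 CPM in the PBS library (-1.23, -1.30 to -1.15). Its partner Mcm5 stood at 30.003 and 87.4 CPM in the irradiated BuOE and PBS libraries (-1.54, -1.66 to -1.42), and at 41.1 and 122 CPM in the unirradiated BuOE and PBS libraries (-1.57, -1.67 to -1.48). Mcm6, at 81.3 CPM in the irradiated BuOE library and 154 CPM in the irradiated PBS library, had a ratio of -0.92 (-0.997 to -0.85). Without radiation it stood at 93.4 and 160 CPM in the BuOE and PBS libraries (-0.78, -0.85 to -0.71), the ratio nearest to 0 of the ring subunits. The 6 ring subunits act as 1 complex, yet their ratios were spread between -1.57 and -0.78 without radiation, wider than their counting intervals.

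Of the loaders, Orc1, the subunit of the origin recognition complex that is made anew in each cycle, had the lowest ratio of the licensing genes without radiation (-1.65, -1.94 to -1.39), at 4.72 CPM in the BuOE library and 14.9 CPM in the PBS library. After radiation it stood at 3.75 and 10.9 CPM in the BuOE and PBS libraries (-1.52, -1.88 to -1.20). Orc6, a small subunit of that complex, lay nearer to 0, with ratios of -0.78 (-0.94 to -0.62) after radiation and -0.94 (-1.09 to -0.78) without. Cdc6, the ATPase that helps to load the ring, stood at 9.71 and 24.8 CPM in the irradiated BuOE and PBS libraries (-1.35, -1.56 to -1.14) and at 11.6 and 32.3 CPM in the unirradiated ones (-1.47, -1.66 to -1.30). Cdt1, the other loader, differed by less. It stood at 31.8 CPM in the irradiated BuOE library and 33.9 CPM in the irradiated PBS library, a ratio of -0.09 (-0.22 to 0.04) that turned to 0.04 with upper-quartile scaling, while without radiation it stood at 25.8 CPM in the BuOE library and 40.2 CPM in the PBS library (-0.64, -0.77 to -0.51).

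Genes that turn the loaded ring into a running helicase were also lower. Cdc45 stood at 6.87 CPM in the irradiated BuOE library and 22.04 CPM in the irradiated PBS library (-1.67, -1.93 to -1.44), and at 13.1 and 28.7 CPM in the unirradiated BuOE and PBS libraries (-1.13, -1.31 to -0.96). Mcm10, which helps to activate the helicase, had ratios of -1.48 (-1.71 to -1.28) after radiation and -1.69 (-1.89 to -1.502) without. The 4 GINS subunits differed among themselves. Gins4 stood at 18.3 and 23.8 CPM in the irradiated BuOE and PBS libraries (-0.38, -0.55 to -0.21), and at 18.1 and 27.9 CPM in the unirradiated ones (-0.62, -0.78 to -0.47). By contrast Gins2 had a ratio of -0.96 (-1.18 to -0.75) after radiation and -1.37 (-1.56 to -1.18) without, and 67.3% of its exon length overlaps Gse1, so its level is less certain. Gins1 and Gins3, both below 10 CPM in every library, had ratios between -1.41 and -0.79.

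The clamp and its loader were the group closest to the other genes of the transcriptome, with a median of -0.60 in both comparisons. Pcna, the sliding clamp, stood at 70.6 CPM in the irradiated BuOE library and 105 CPM in the irradiated PBS library (-0.57, -0.65 to -0.48), and at 75.1 and 113 CPM in the unirradiated BuOE and PBS libraries (-0.59, -0.67 to -0.51). Rfc1, the large subunit of the loader, stood at 71.5 and 98.3 CPM in the irradiated BuOE and PBS libraries (-0.46, -0.54 to -0.38), and at 76.7 and 99.6 CPM in the unirradiated ones (-0.38, -0.46 to -0.30). Rfc5 was the exception in this group, at 10.9 and 25.6 CPM in the irradiated BuOE and PBS libraries (-1.22, -1.43 to -1.03), and at 12.7 and 30.8 CPM in the unirradiated ones (-1.27, -1.45 to -1.10). The other loader subunits, Rfc2, Rfc3 and Rfc4, lay between -0.67 and -0.33. The single-strand binding proteins lay close to these. Rpa1 stood at 79.4 and 130 CPM in the irradiated BuOE and PBS libraries (-0.71, -0.79 to -0.64), and at 88.4 and 142 CPM in the unirradiated ones (-0.68, -0.75 to -0.61). Rpa2 had a ratio of -0.78 in both comparisons, and Rpa3 was at -0.59 (-0.87 to -0.32) after radiation and -0.31 (-0.57 to -0.05) without.

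Among the polymerases, Pole, the catalytic subunit of the leading-strand polymerase, stood at 21.6 CPM in the irradiated BuOE library and 58.6 CPM in the irradiated PBS library (-1.43, -1.58 to -1.30), and at 26.0 and 71.5 CPM in the unirradiated BuOE and PBS libraries (-1.46, -1.58 to -1.34). Pold1, its counterpart in the lagging-strand polymerase, was lower by less, at 23.8 and 38.1 CPM in the irradiated BuOE and PBS libraries (-0.67, -0.82 to -0.53), and at 25.9 and 50.4 CPM in the unirradiated ones (-0.96, -1.09 to -0.84). The primase subunit Prim1, which makes the RNA primers, had ratios of -1.54 (-1.78 to -1.31) after radiation and -1.45 (-1.67 to -1.25) without. Pold2, an accessory subunit, was near no difference after radiation, at 17.5 and 18.7 CPM in the irradiated BuOE and PBS libraries (-0.09, -0.27 to 0.09, and 0.05 with upper-quartile scaling), and at 14.4 and 20.3 CPM in the unirradiated ones (-0.49, -0.68 to -0.32). Pola1, Pola2 and Prim2 lay between -1.07 and -0.77, and Pole2 at -1.45 after radiation and -0.78 without.

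All 4 nucleotide supply genes were at least 2-fold lower in both comparisons. Rrm2, the S phase subunit of ribonucleotide reductase, stood at 116 CPM in the irradiated BuOE library and 252 CPM in the irradiated PBS library (-1.12, -1.18 to -1.05), and at 99.3 CPM in the BuOE library and 307 CPM in the PBS library (-1.63, -1.69 to -1.57). Its large partner subunit Rrm1 stood at 97.7 and 216 CPM in the irradiated BuOE and PBS libraries (-1.15, -1.21 to -1.08), and at 106 and 250 CPM in the unirradiated ones (-1.24, -1.30 to -1.18). Tk1, the thymidine salvage kinase, was among the lowest of all 53 genes, at 8.89 CPM in the irradiated BuOE library and 35.4 CPM in the irradiated PBS library (-1.99, -2.21 to -1.79), and at 11.5 and 39.4 CPM in the unirradiated BuOE and PBS libraries (-1.77, -1.95 to -1.60). Tyms, which makes thymidylate, had ratios of -1.47 (-1.65 to -1.31) after radiation and -1.35 (-1.495 to -1.20) without.

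Of the genes that finish and repair new strands, Fen1, the flap endonuclease, stood at 20.5 and 41.6 CPM in the irradiated BuOE and PBS libraries (-1.02, -1.17 to -0.87), and at 26.6 and 56.8 CPM in the unirradiated ones (-1.09, -1.22 to -0.97). Most of its exon length overlaps another gene, Gm10143, so its level is less certain. Lig1, which seals the nicks, stood at 43.9 and 76.4 CPM in the irradiated BuOE and PBS libraries (-0.80, -0.90 to -0.70), and at 48.2 and 96.7 CPM in the unirradiated ones (about -1, -1.10 to -0.91). Ung, which removes uracil from DNA, was the only member above 0 after radiation, at 8.60 and 7.35 CPM in the irradiated BuOE and PBS libraries, with an interval that includes 0 (0.22, -0.04 to 0.49), and without radiation it stood at 6.53 CPM in the BuOE library and 8.31 CPM in the PBS library (-0.34, -0.63 to -0.07).

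Genes that act on chromatin behind the fork included some of the lowest ratios. Pclaf, a PCNA-binding protein, stood at 11.2 CPM in the irradiated BuOE library and 45.4 CPM in the irradiated PBS library (-2.02, -2.22 to -1.84), and at 14.4 and 51.5 CPM in the unirradiated BuOE and PBS libraries (-1.83, -1.99 to -1.68). Uhrf1, which brings the maintenance methyltransferase to hemimethylated DNA, had a ratio of -1.53 in both comparisons, at 37.2 and 108 CPM in the irradiated BuOE and PBS libraries and 51.5 and 149 CPM in the unirradiated ones. Dnmt1, the methyltransferase itself, was lower by less, at 152 CPM in the irradiated BuOE library and 230 CPM in the irradiated PBS library (-0.60, -0.65 to -0.54), and at 161 and 306 CPM in the unirradiated BuOE and PBS libraries (-0.93, -0.98 to -0.88). The chromatin assembly subunits Chaf1a and Chaf1b lay between -1.32 and -1.08, and 52.5% of the exon length of Chaf1a overlaps Ubxn6.

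The regulators of S phase entry showed the same direction. Ccne1, a cyclin that activates Cdk2, stood at 10.7 CPM in the irradiated BuOE library and 24.4 CPM in the irradiated PBS library (-1.18, -1.39 to -0.98), and at 10.7 and 29.0 CPM in the unirradiated BuOE and PBS libraries (-1.43, -1.63 to -1.25). The related Ccne2 had ratios of -1.25 (-1.505 to -1.02) after radiation and -1.66 (-1.91 to -1.43) without. E2f1, an activator of S phase genes, stood at 13.3 and 25.9 CPM in the irradiated BuOE and PBS libraries (-0.96, -1.15 to -0.78), and at 17.3 and 30.3 CPM in the unirradiated ones (-0.80, -0.96 to -0.65). The repressors of the family, which are themselves E2F targets, lay further down. E2f7 stood at 7.49 and 26.7 CPM in the irradiated BuOE and PBS libraries (-1.83, -2.07 to -1.60), and E2f8 at 6.54 and 20.1 CPM (-1.61, -1.88 to -1.37). Without radiation E2f7 stood at 9.50 and 34.5 CPM in the BuOE and PBS libraries (-1.85, -2.05 to -1.67), and E2f8 at 9.04 and 32.4 CPM (-1.84, -2.04 to -1.65). E2f2, the least expressed member, stood at 1.36 and 3.26 CPM in the irradiated BuOE and PBS libraries (-1.22, -1.87 to -0.69), and at 2.34 and 3.17 CPM in the unirradiated ones, with an interval that includes 0 (-0.43, -0.90 to 0.03). Clspn, an adaptor of the fork checkpoint, stood at 12.6 and 44.4 CPM in the irradiated BuOE and PBS libraries (-1.81, -1.995 to -1.64), and at 18.2 and 55.7 CPM in the unirradiated ones (-1.61, -1.76 to -1.47). Dtl, part of the ligase that degrades Cdt1 in S phase, had ratios of -1.46 (-1.68 to -1.26) after radiation and -1.22 (-1.40 to -1.05) without.

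**Figure D3:**
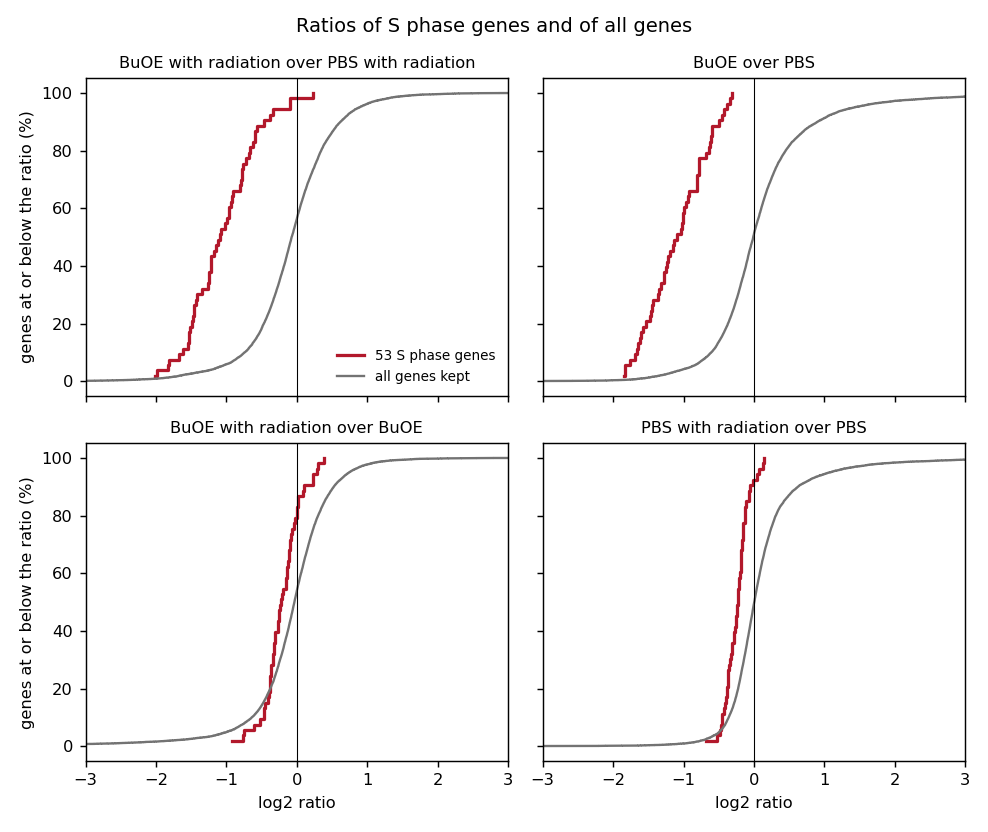
Cumulative share of genes at or below each log2 ratio, for the 53 S phase genes and for all 14365 genes kept, in 4 comparisons of 2 libraries; the vertical line marks no difference. The S phase curve lies about 1 log2 unit to the left of all genes in the BuOE panels (medians -1.08 and -1.09) and about 0.2 to the left in the radiation panels (medians -0.22 and -0.23).

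Radiation was accompanied by smaller differences. In the BuOE arm the median ratio of the irradiated to the unirradiated library was -0.22, against -0.03 over all genes. Below 0 were 42 of 53 genes, against 53.8% of all genes, and the scaling moved both. Below 0 were 48 genes with scaling by library size alone, against 64.9% of all genes, and 34 with upper-quartile scaling, against 41%. In the PBS arm the median was -0.23, against a median of 0.00 over all genes, with 49 of 53 below 0 under each of the 4 scalings, against 49.6% of all genes with the scaling used here. Few genes were far from 0. At least 1.5-fold lower in the irradiated library were 4 genes in the BuOE arm, against 11.4% of all genes, namely Cdc45, E2f2, Pole2 and Gins1, and 1 gene in the PBS arm, E2f8, against 3.56%. E2f2 (-0.76, -1.43 to -0.17), Pole2 (-0.75, -1.19 to -0.34) and Gins1 (-0.61, -1.08 to -0.18) averaged below 10 CPM and had wide intervals in the BuOE arm. None of the 53 was 2-fold lower in the BuOE arm, against 4.94% of all genes, or in the PBS arm, against 1.02%. None was 1.5-fold higher in the BuOE arm, against 8.3%, or in the PBS arm, against 10.9%. The counting interval lay wholly below 0 for 32 genes in the BuOE arm, against 34.3% of all genes, and for 43 genes in the PBS arm, against 29.3%. It lay wholly above 0 for 4 genes in the BuOE arm, against 29.6%.

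**Figure D4:**
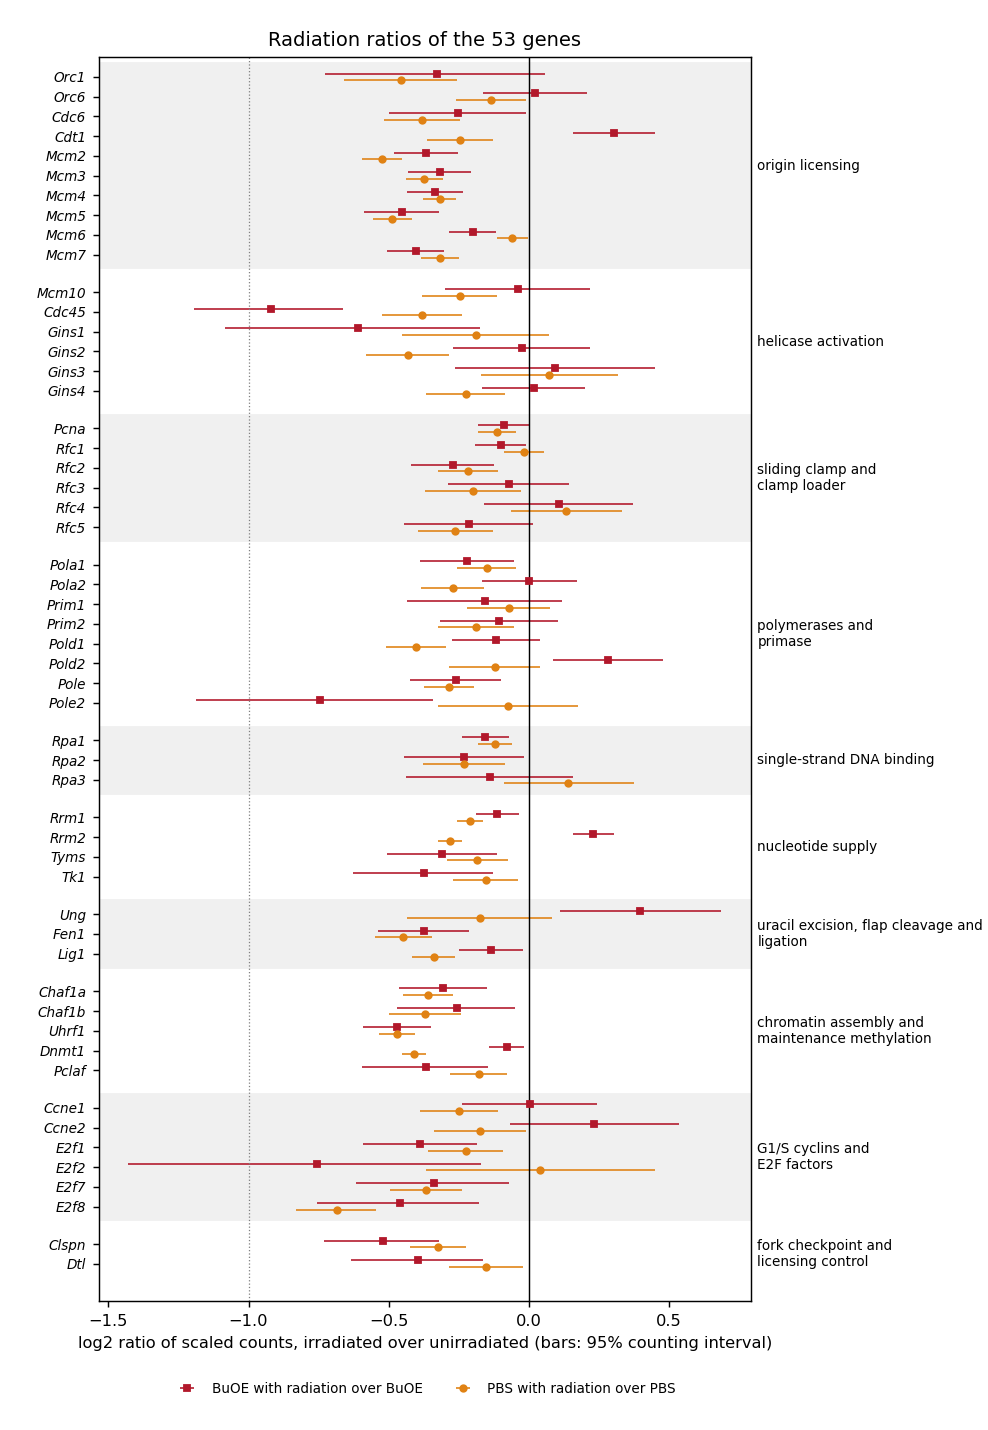
Log2 ratio of the irradiated to the unirradiated library for each gene, in the BuOE arm (squares) and in the PBS arm (circles), with 95% counting intervals as bars. Most points lie between -0.5 and 0, and in the BuOE arm the intervals of Cdt1, Pold2, Rrm2 and Ung lie wholly right of 0.

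The helicase ring genes were a little lower in the irradiated library of both arms. Mcm2 stood at 41.4 CPM in the irradiated BuOE library and 53.4 CPM in the BuOE library (-0.37, -0.48 to -0.25), and at 82.2 CPM in the irradiated PBS library and 118 CPM in the PBS library (-0.52, -0.60 to -0.45). Mcm5 had ratios of -0.45 (-0.59 to -0.32) in the BuOE arm and -0.49 (-0.56 to -0.42) in the PBS arm, and Uhrf1 of -0.47 in both. E2f8 had the lowest ratio of the PBS arm, at 20.1 CPM in the irradiated PBS library and 32.4 CPM in the PBS library (-0.69, -0.83 to -0.55), and a ratio of -0.46 (-0.76 to -0.18) in the BuOE arm. Cdc45 had the lowest ratio of the BuOE arm, at 6.87 CPM in the irradiated BuOE library and 13.1 CPM in the BuOE library (-0.92, -1.20 to -0.66), against -0.38 (-0.52 to -0.24) in the PBS arm. Pcna was close to 0 in both arms, at -0.09 (-0.18 to 0.00) in the BuOE arm, where it turned to 0.03 with upper-quartile scaling, and at -0.11 (-0.18 to -0.05) in the PBS arm.

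Between the arms the radiation ratios of single genes differed by a median of 0.03 (BuOE arm minus PBS arm), which was -0.09 with scaling by library size alone and 0.18 with upper-quartile scaling. With the scaling used here 36 of the 53 differences had a counting interval that includes 0. Those wholly above 0 numbered 13, against 26.3% of all genes, and those wholly below 0 numbered 4, against 31% of all genes. The differences furthest from 0 were those of E2f2 (-0.80, -1.51 to -0.08), Pole2 (-0.67, -1.15 to -0.20) and Ung (0.57, 0.19 to 0.95). Rrm2 and Cdt1 lay in opposite directions in the 2 arms with both counting intervals leaving out 0. Rrm2 was higher in the irradiated library of the BuOE arm, at 116 CPM in the irradiated BuOE library against 99.3 CPM in the BuOE library (0.23, 0.16 to 0.30), and lower in that of the PBS arm, at 252 CPM in the irradiated PBS library against 307 CPM in the PBS library (-0.28, -0.32 to -0.24). Cdt1 had ratios of 0.30 (0.16 to 0.45) in the BuOE arm and -0.24 (-0.36 to -0.13) in the PBS arm. Across the 53 genes the radiation ratios of the 2 arms had a Pearson correlation of 0.26, which is across genes whose levels come from the same 4 libraries. The correlation was 0.31 among the 33 genes averaging 20 CPM or more, and -0.24 over all genes kept.

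The irradiated BuOE library against the untreated PBS library had a median ratio of -1.40 over the 53 genes, with 39 at least 2-fold lower, against 6.27% of all genes. E2f8 was the lowest, at 6.54 CPM in the irradiated BuOE library and 32.4 CPM in the PBS library (-2.30, -2.56 to -2.07), followed by Pclaf (-2.20, -2.40 to -2.02). Ung was the only member above 0 (0.05, -0.22 to 0.32). This comparison shares its libraries with those above.

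The only test the 4 libraries allow is a model with radiation and BuOE as additive terms, which takes the interaction of both as its error and leaves 1 residual degree of freedom. With edgeR's quasi-likelihood test and Benjamini-Hochberg adjustment over all 14365 genes, 0 genes passed an adjusted p of 0.05 for BuOE, 0 of the 53 among them. At an unadjusted p under 0.05 were 2954 genes, or 20.6%, and 47 of the 53. The smallest adjusted p of the 53 genes was 0.0908, which was also the smallest of all genes and was reached by Pclaf, Uhrf1, Mcm5 and Tk1, among others. DESeq2 with the same model called 866 of 12694 genes, or 6.82%, and 35 of the 53, all lower with BuOE, with an adjusted p of 1.69e-09 for Uhrf1 (log2 ratio -1.49, below both PBS libraries in both BuOE libraries). For edgeR the count was 23 of the 53 without a filter on low counts, where 0.89% of all genes were called, and 29 of the 46 that pass a filter of 10 CPM, where 4.05% were called. The limma-voom fit called 0 genes. Whether the members pass therefore depends on the tool and the filter. For radiation, edgeR called 0 genes (0%), with 1076 genes, or 7.49%, and 10 of the 53 at an unadjusted p under 0.05, and DESeq2 called 112 genes, or 0.78%, and 0 of the 53.

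Other cell cycle genes were listed by role for comparison, and these lists were chosen with earlier results of these data known. Of 43 further replication genes, 26 were at least 1.5-fold lower in the irradiated BuOE than in the irradiated PBS library, with a median of -0.90, against 14.6% of all genes. In the BuOE library 25 were that much lower than in the PBS library, with a median of -0.77, against 10.6%. The lowest were Dscc1 (-2.05) and Ticrr (-1.83) after radiation, and Recql4 (-1.89) and Exo1 (-1.68) without. Pold4, a small subunit of the lagging-strand polymerase, was the only one 1.5-fold higher, at 45.4 CPM in the irradiated BuOE library and 28.7 CPM in the irradiated PBS library (0.66, 0.54 to 0.79). All 25 genes of G2 and mitosis were at least 2-fold lower with BuOE in both comparisons, against 2.2% of all genes, with medians of -1.71 after radiation and -1.40 without. Mki67, the usual proliferation marker, stood at 112 CPM in the irradiated BuOE library and 438 CPM in the irradiated PBS library (-1.96, -2.02 to -1.90), and at 169 and 446 CPM in the unirradiated BuOE and PBS libraries (-1.40, -1.44 to -1.35).

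**Figure D5:**
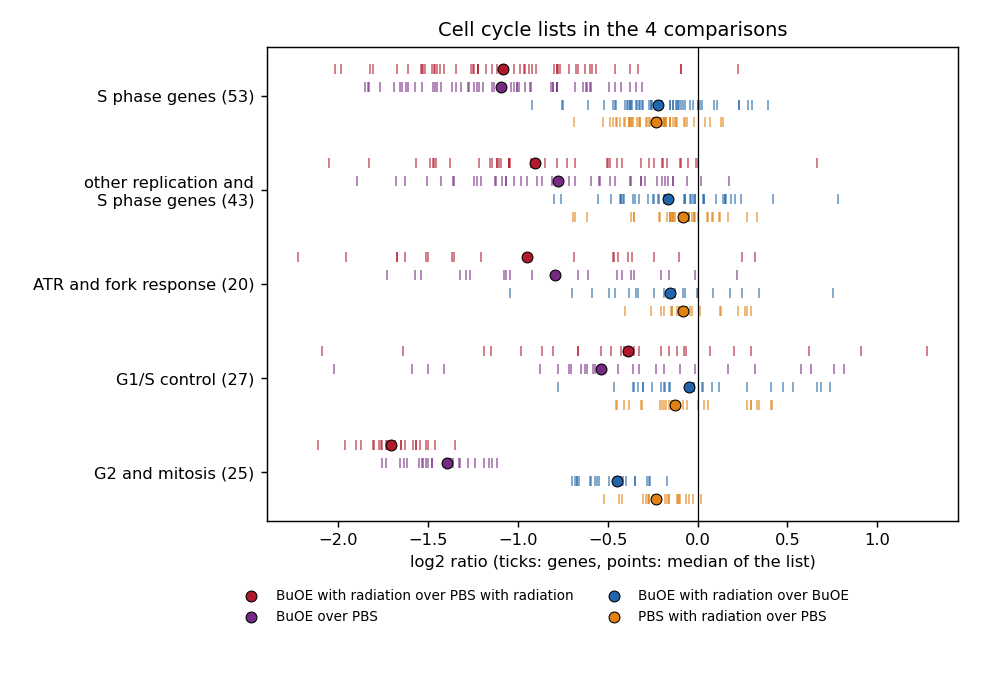
Log2 ratios of the 53 S phase genes and of 4 further cell cycle lists in 4 comparisons of 2 libraries, with a tick for each gene and a point for the median of the list. The BuOE medians lie furthest left for G2 and mitosis (-1.71 and -1.40), and the G1/S control list alone has genes on both sides of 0 by more than 1.5-fold in both BuOE comparisons.

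Of the 27 G1/S control genes found in the table, 9 were lower by 1.5-fold or more after radiation, BuOE against PBS, where 14.6% of all genes were, and 3 were higher by as much, where 11% of all genes were. Without radiation 11 were lower by that much, against 10.6% of all genes, and 3 were higher, against 16%. Ccna2, the cyclin of S phase and G2, stood at 18.1 and 77.2 CPM in the irradiated BuOE and PBS libraries (-2.09, -2.24 to -1.95). The Cdk inhibitor genes lay on both sides of 0. Cdkn1a, the p21 gene, stood at 591 CPM in the irradiated BuOE library and 244 CPM in the irradiated PBS library (1.28, 1.24 to 1.32), and at 354 and 201 CPM in the unirradiated BuOE and PBS libraries (0.82, 0.77 to 0.86). Cdkn1b, a related inhibitor, had ratios of 0.91 (0.82 to 1.00) after radiation and 0.63 (0.52 to 0.74) without. Cdkn2c, an inhibitor of another family, had ratios of -0.66 (-0.87 to -0.47) after radiation and -0.72 (-0.89 to -0.55) without. Cdkn2a, of the same family and expressed near the filter, had ratios of -1.15 (-2.01 to -0.48) after radiation and -2.02 (-3.08 to -1.34) without. Cdkn2c was chosen after its values were seen. The retinoblastoma gene Rb1 had ratios of 0.62 (0.50 to 0.75) after radiation and 0.76 (0.62 to 0.91) without. The D cyclin Ccnd1 differed little, with ratios of -0.11 (-0.17 to -0.06) after radiation and -0.10 (-0.14 to -0.05) without. The other D cyclins, also chosen after their values were seen, lay lower without radiation, with ratios of -0.78 (-0.82 to -0.73) for Ccnd2 and -0.62 (-0.70 to -0.53) for Ccnd3, and after radiation Ccnd2 was at -0.16 (-0.20 to -0.12) and Ccnd3 at -0.35 (-0.44 to -0.27).

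Markers of other cell types differed between the same libraries. The 10 epithelial markers summed to 5902 CPM in the irradiated BuOE library and 3837 CPM in the irradiated PBS library, and to 5531 and 4519 CPM in the unirradiated BuOE and PBS libraries. The 10 fibroblast markers, which went both ways without radiation (4 above 0 and 6 below 0, BuOE against PBS), summed to 5316 CPM in the irradiated BuOE library and 9304 CPM in the irradiated PBS library, and to 6354 and 6233 CPM in the unirradiated BuOE and PBS libraries. The 9 macrophage markers summed to 522 and 337 CPM in the irradiated BuOE and PBS libraries and 434 and 378 CPM in the unirradiated BuOE and PBS libraries. BuOE against PBS, all 9 macrophage markers were above 0 after radiation (median 0.75), and 8 were above 0 without radiation (median 0.39). The 1 below 0 without radiation was Lyz2, the most abundant of them. It had a ratio of 0.45 (0.40 to 0.51) after radiation and -0.24 (-0.29 to -0.19) without. The 9 neuronal markers stood at 82.1 and 210 CPM in the irradiated BuOE and PBS libraries, and at 651 and 101 CPM in the unirradiated BuOE and PBS libraries. Over the 4 libraries the sums ranged between 437 and 741 CPM for 8 endothelial markers, between 408 and 674 CPM for 7 pericyte markers and between 86.3 and 269 CPM for 7 Schwann cell markers. The 7 adipocyte markers, of which Adipoq and Lep were at 0 in at least 1 library, were highest in the PBS library, at 563 CPM, and between 170 and 205 CPM in the others. The epithelial, fibroblast, macrophage and neuronal markers were all detected in every library. The part of these markers in the lower S phase levels was not tested.

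The promoters of these genes were searched for the E2F core motif, written as the letters TTCCCGC, as the letters TTGGCGC or as the letters TTCGCGC, on either strand. Other forms of the motif were not searched. RefSeq promoters of build GRCm38.p6, each with 250 bases before and 50 after a start of transcription, were matched by symbol for 45 of the 53 genes. The motif was present in 30 of these, or 66.7%, against 9.20% of all 27025 genes with a promoter and 16.5% of the 10720 of them that were kept in the count table. The genes were chosen as S phase genes, so this share describes the list and not its lower levels with BuOE. A CCAAT box, written CCAAT on either strand, was present in 66.7%, against 41.1% of all genes and 42.5% of those kept. The CHR element of mitotic genes, written TTTGAA on either strand, was present in 17.8%, against 20.2% of all genes and 14.3% of those kept. Among the 45, the median BuOE ratio without radiation was -1.05 for the 30 with the E2F motif and -1.13 for the 15 without it, and after radiation it was -1.11 for the 30 with the motif and -0.99 for the 15 without it. The 150 bases before the start are printed for the 4 genes with the lowest mean BuOE ratio and the 2 with the highest among those with 1 promoter entry and a motif in that stretch, and for the genes with the lowest and the highest ratio among those with no motif in their entry, to show what such promoters look like at both ends of the range. Capitals mark the E2F core motif.
E2f7: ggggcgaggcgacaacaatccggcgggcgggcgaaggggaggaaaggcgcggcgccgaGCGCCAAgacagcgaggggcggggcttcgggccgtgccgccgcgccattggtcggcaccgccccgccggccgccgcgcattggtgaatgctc
E2f8: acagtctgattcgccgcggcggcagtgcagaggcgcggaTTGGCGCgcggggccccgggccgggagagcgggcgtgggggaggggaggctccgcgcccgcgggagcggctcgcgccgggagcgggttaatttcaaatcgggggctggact
Orc1: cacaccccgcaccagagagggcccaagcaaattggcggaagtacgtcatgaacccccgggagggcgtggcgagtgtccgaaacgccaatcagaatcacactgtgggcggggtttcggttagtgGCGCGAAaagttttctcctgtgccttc
Mcm5: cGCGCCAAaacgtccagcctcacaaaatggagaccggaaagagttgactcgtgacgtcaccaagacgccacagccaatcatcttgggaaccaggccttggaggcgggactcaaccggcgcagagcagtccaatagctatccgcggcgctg
Rpa3: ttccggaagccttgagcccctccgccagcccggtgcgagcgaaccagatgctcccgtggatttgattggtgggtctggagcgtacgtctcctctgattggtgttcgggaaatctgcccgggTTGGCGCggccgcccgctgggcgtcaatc
Rfc3: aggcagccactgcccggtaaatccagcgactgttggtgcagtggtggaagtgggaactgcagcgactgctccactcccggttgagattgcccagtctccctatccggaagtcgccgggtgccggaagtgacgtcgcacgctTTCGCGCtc
Tk1: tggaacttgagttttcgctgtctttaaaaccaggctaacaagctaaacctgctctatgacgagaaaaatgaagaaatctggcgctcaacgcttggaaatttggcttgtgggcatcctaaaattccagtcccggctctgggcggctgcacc
Ung: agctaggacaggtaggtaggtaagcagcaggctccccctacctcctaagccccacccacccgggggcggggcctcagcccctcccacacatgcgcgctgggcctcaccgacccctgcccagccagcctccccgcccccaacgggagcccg

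In GRCm38.p6 the printed stretches are chr10:110745289-110745438 on the plus strand for E2f7, chr7:48881597-48881746 on the minus strand for E2f8, chr4:108579304-108579453 on the plus strand for Orc1, chr8:75109359-75109508 on the plus strand for Mcm5. The others are chr6:8259142-8259291 on the minus strand for Rpa3, chr5:151651209-151651358 on the minus strand for Rfc3, chr11:117826015-117826164 on the minus strand for Tk1 and chr5:114130285-114130434 on the plus strand for Ung. The motif began 92 bases before the start in E2f7, 111 in E2f8, 27 in Orc1 and 149 in Mcm5, whose mean BuOE ratios lay between -1.84 and -1.56. It began 29 bases before the start in Rpa3 and 9 in Rfc3, whose mean ratios were -0.45 and -0.39. Tk1, with a mean ratio of -1.88, had none of these letters in its entry, and neither had Ung, with a mean ratio of -0.06. A match is a description of the letters and not of binding.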

How the data were processed

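Total RNA of the cultures was sequenced on an Illumina instrument, per the labels' protocols, and the deposited values are raw counts of reads per gene made by the authors with featureCounts on GRCm39, per the submitters' processing notes. Trim Galore, FastQC, Salmon and edgeR are also named there without their role. How strand and multi-mapping reads were handled is not stated. The exons of 18 of the 53 genes overlap another gene in GENCODE M21, for 14 of them over at least 5% of their length (Fen1 78.8% with Gm10143, Gins2 67.3% with Gse1 and Chaf1a 52.5% with Ubxn6), and Pcna and Tyms have annotated pseudogenes, so these values are less certain.

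Symbols were joined by Ensembl ID without version, and 52073 of 56748 IDs had one. Where a listed symbol had several IDs, the one with more counts was used. TMM scaling was done in edgeR 4.0.16 under R 4.3.3, genes averaging 1 CPM or more were kept, and log2 ratios used a prior count of 2. Intervals are exact binomial intervals at 95% of the counts of 2 libraries given their scaled totals; those of a difference between arms are normal approximations on the log scale. Groups follow the treatment in the labels, and no sample column was left unused. Additive fits used edgeR, DESeq2 1.42.0 and limma 3.58.1, and the alternatives changed the scaling, the filter, the prior count, the summary or the tool. Simulated counts with set changes were used to check the recovered median ratio of the lowered genes. The coverage of the intervals and the share of calls in that simulation are not given here. Members, lists and tests were chosen with earlier results of these data known. Any member could be named, with levels given for the members of each role with the highest means or the most extreme ratios. From the other lists the 2 highest and 2 lowest ratios were eligible, with Mki67, Ccnd1, Cdkn1a and Rrm2b.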

Additional observations from a re-analysis of the deposited data

Results flagged for a closer look

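The radiation ratios of Cdt1 and Rrm2 lay in opposite directions in the 2 arms, each with a counting interval that leaves out 0. The difference, BuOE arm minus PBS arm, was 0.55 for Cdt1 and 0.51 for Rrm2 on the log2 scale. Each arm holds 1 library per condition, so whether the arms differ was not tested.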

How the results depend on the processing

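Ratios were recomputed with DESeq2 size factors, library size alone, upper-quartile factors, no filter, a filter of 10 CPM, a prior count of 0.5 and means in place of medians. The median BuOE ratio of the 53 genes stayed between -1.11 and -0.95 after radiation and between -1.17 and -1.004 without. The median radiation ratio stayed between -0.33 and -0.10 in the BuOE arm and between -0.26 and -0.22 in the PBS arm. In the BuOE arm the count of genes at least 2-fold lower with radiation was 1 with library size alone, and the count at least 1.5-fold lower was 1 with the filter of 10 CPM, which leaves 46 members. The median difference between the arms ran from -0.09 to 0.18. The additive BuOE effect was called for 35 members by DESeq2, 23 without a filter and 29 with the filter of 10 CPM, against 0 with edgeR as described; the cause was not tested. In the BuOE arm the median of all genes was -0.15 with library size alone and 0.08 with upper-quartile factors, so ratios of about that size in single genes have no settled sign. Of 1555 recomputed values of single genes, 16 had another sign, but a filter cannot change a single ratio. All 16 came from library size alone or upper-quartile factors. In the radiation ratios of the BuOE arm they were 6 of 53 with library size alone and 8 of 53 with upper-quartile factors. The other 2 were BuOE ratios after radiation with upper-quartile factors. No paired analysis was possible because each condition has 1 library. Leaving out a library leaves the additive model without residual degrees of freedom. The intervals widen with fewer reads, as for E2f2, and the spread between replicates was not measured.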

Other observations

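Exon length here counts every base in any annotated exon of a gene in GENCODE M21. It can exceed the length of a single transcript, and the order of genes depends on it. Per kilobase of that length, Rrm2 had the highest mean level of the 53 genes over the 4 libraries, at 69.9 CPM per kilobase. Next were Pcna at 37.9, Dnmt1 at 28.8, Mcm4 at 28.7 and Mcm6 at 26.2. The lowest was E2f2, at 0.518 CPM per kilobase. Rrm2 ranked first and Pcna second in each of the 4 libraries. The order below them differed between libraries: next came Dnmt1 in both BuOE libraries and Mcm4 in both PBS libraries.

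Of 20 genes of the ATR and fork response, 11 were lower by 1.5-fold or more after radiation, BuOE against PBS, where 14.6% of all genes were, and 12 without radiation, where 10.6% were. Rrm2b, the p53-inducible subunit of ribonucleotide reductase, lay on the other side from Rrm2, at 21.7 and 18.3 CPM in the irradiated BuOE and PBS libraries (0.24, 0.08 to 0.41) and at 18.3 and 15.7 CPM in the unirradiated BuOE and PBS libraries (0.22, 0.04 to 0.40).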
